A study of Mus musculus with 2 samples.

Results

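The genes described here encode the proteins that license and fire replication origins and copy DNA at the fork, together with the enzymes that supply deoxynucleotides and the E2F factors that regulate many of these genes. The members were 49 genes chosen by name, and every probe carrying one of these names in both array files was taken, 102 probes of 56605 in all. All 49 names were found among the 37074 gene names on the array. Primary hepatocytes were isolated from the liver of control mice, *Drp1* flox/flox littermates which the labels call wild type, and of *Drp1*LiKO mice, which carry Alb-Cre Tg/+ beside *Drp1* flox/flox. Both were on a C57BL/6 background. Cre driven by the albumin promoter deletes *Drp1* in hepatocytes, so other liver cells in a preparation keep the gene. *Drp1*, listed on the array as *Dnm1l*, encodes the GTPase that divides mitochondria. Neither the age nor the number of mice behind these cultures is given in the sources used here. Liver was perfused with collagenase, hepatocytes were pelleted at low speed and seeded at 300000 cells per well on collagen, unattached cells were discarded with the medium after 4 h, and cells were harvested 24 h after seeding in medium with insulin and serum. The comparison addresses how gene expression in hepatocytes differs when *Drp1* is deleted.

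Origins are licensed in G1, when the origin recognition complex, with Cdc6 and Cdt1, loads the Mcm2 to Mcm7 helicase onto DNA. In S phase the kinase Cdc7 with its partner Dbf4 fires the licensed origins, Cdc45 and the GINS complex complete the active helicase, and polymerases alpha, delta and epsilon copy the strands with the clamp PCNA. Adult hepatocytes in the liver are mostly quiescent, and many of these genes are transcribed under E2F control when a cell enters the cycle, as hepatocytes can do after partial hepatectomy or, in part, in culture. None of the measurements here counts cells in S phase. A lower level of such a transcript in a bulk culture can come from fewer cells in cycle or from less RNA per cell, and the arrays cannot tell these apart.

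RNA of 1 culture per genotype was hybridized to 1 array each, on 1 slide, so there was no replicate, and neither a test nor a p-value is given. Each value describes these 2 arrays, and their number limits the precision of every difference. The deposited processed signals, linear intensities corrected for background, were brought to log2 and scaled by subtracting from each array its 75th percentile. Of all probes, 48.2% exceeded background clearly on the control array and 52.1% on the *Drp1*LiKO array. The log2 ratio below is always *Drp1*LiKO minus control after this scaling, whereas the signals quoted are the processed signals before it. A gene was represented by its brightest probe. A Z score of 2 in either direction, which corresponds to a log2 ratio of -1.31 or 1.30, was used as a threshold of size. The targeted gene *Dnm1l* had a signal of 2602 in the control and 1217 in the *Drp1*LiKO culture, a log2 ratio of -1.28 and a Z score of -1.95, so it was lower in the cells labelled knockout and lay just short of the threshold. Its other probe, near background, had 22.8 in the control and 20.9 in the *Drp1*LiKO culture, a ratio of -0.31.

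Transcripts of the replication machinery were lower in *Drp1*LiKO hepatocytes across nearly the whole set. The signal of 47 of 49 members was lower, against 55.5% of the 20165 detected genes. The members had a median log2 ratio of -0.72, a 1.65-fold lower level, whereas the median of all detected genes was -0.05. The 8 members past the threshold, all lower, were *E2f7*, *Cdc6*, *Rrm2*, *E2f8*, *Mcm10*, *Cdc45*, *Tk1* and *Pole*. That is 16.3% of the members, where 2.81% of all detected genes passed in this direction. No member passed in the higher direction, in which 3.5% of all detected genes did. A reduction of at least 2-fold was seen for 13 members, against 4.59% of all detected genes. The member nearest to the threshold on its inner side was *Pole*, with a Z score of -2.02, and the nearest outside was *Pole2*, with a Z score of -1.82. *Cdc6* also belongs to the list of genes of mitotic nuclear division that the study drew from this experiment, so its reduction is not independent of that list. Without it, 7 of 48 members passed and the median was -0.71.

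**Figure D1:**
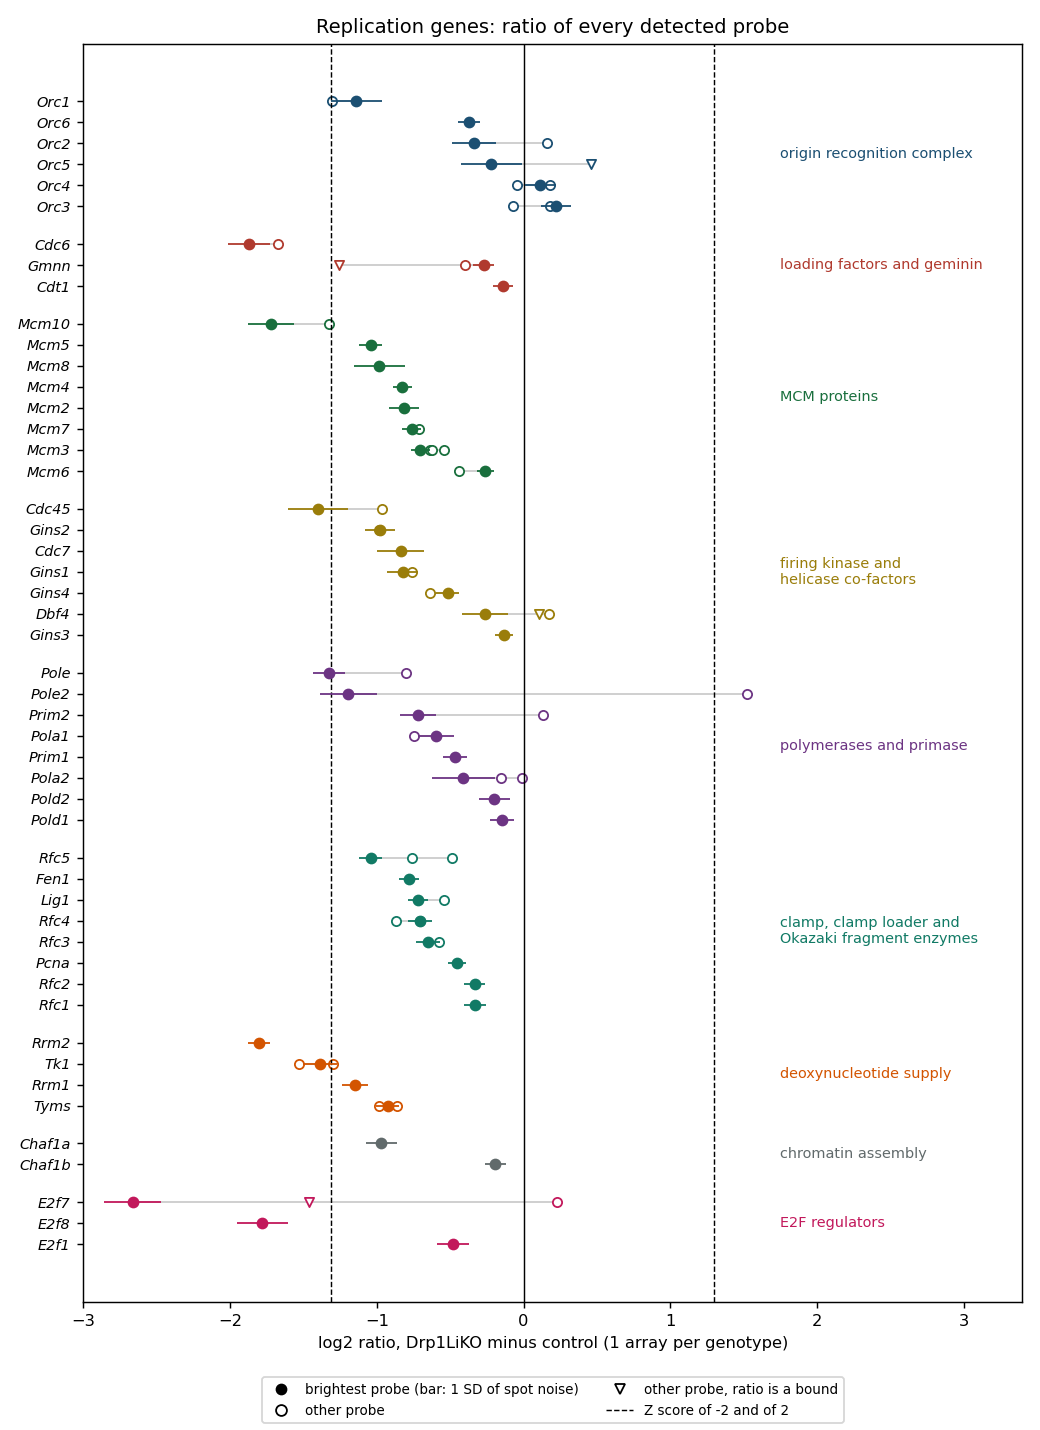
Log2 ratio (x axis, *Drp1*LiKO minus control, 1 array per genotype) of every detected probe of the 49 genes (y axis), grouped by role. Filled points are the brightest probe of a gene with a bar of 1 SD of the noise expected between single spots, open circles are other probes, open triangles are probes whose ratio is a bound, and dashed lines mark Z scores of -2 and 2. Filled points of 47 genes lie left of 0, from -2.66 for *E2f7*, and only *Orc3* and *Orc4* lie to the right.

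The reduction was seen at the level of single probes too. Of the 102 probes, 89 were detected on at least 1 array and 85 on both, 4 had a ratio that is only a bound because 1 array was not well above background, and 13 were not detected. Of the detected probes 78 were lower and 11 were higher. The 89 detected member probes had a median log2 ratio of -0.70, against -0.03 for all detected probes. The share of lower ones among all detected probes was not computed. The threshold was passed by 12 probes in the lower direction, against 2.49% of all detected probes, and by 1 in the higher direction. Among the 28 genes with more than 1 detected probe, all probes were lower in 20, and none had all probes higher. The other 8 had probes of both signs, namely *Dbf4*, *E2f7*, *Orc2*, *Orc3*, *Orc4*, *Orc5*, *Pole2* and *Prim2*. How often the probes of a gene shared a sign was not counted over all detected genes. The noise expected between single spots of a probe was taken from probes printed 10 times. For the brightest probes of the members it was 0.060 to 0.21 on the log2 scale. The ratio of 38 members exceeded 3 times this noise. The same share was not computed for all detected genes, so this count does not set the members apart. The noise covers the array surface only, not the spread between cultures or mice. The other 11 genes, *Cdt1*, *Chaf1b*, *Dbf4*, *Gins3*, *Orc2* to *Orc5*, *Pola2*, *Pold1* and *Pold2*, lay under 3 times it, which is meant by within the noise here.

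The lowest ratios among the members were those of *E2f7* and *Cdc6*, and the E2F group had the lowest median of the role groups, -1.78. *E2f7* and *E2f8* encode atypical E2F factors, which repress E2F targets late in S phase and are known in liver for their part in the polyploidy of hepatocytes. *E2f7* had a signal of 343 in the control and 61.5 in the *Drp1*LiKO culture, a log2 ratio of -2.66 (6.34-fold lower), and 0.669% of all detected genes had a lower ratio. *E2f8* had a signal of 388 in the control and 128 in the *Drp1*LiKO culture, a log2 ratio of -1.78. *E2f1*, the activating E2F of the set, differed less, with 1071 in the control and 872 in the *Drp1*LiKO culture and a log2 ratio of -0.48. Both repressors were thus past the threshold and the activator was well short of it. *Cdc6*, the factor that loads the helicase with the origin recognition complex, had a signal of 731 in the control and 227 in the *Drp1*LiKO culture, a log2 ratio of -1.87, and its second probe gave -1.67. Its partner *Cdt1* had 6341 in the control and 6532 in the *Drp1*LiKO culture, a log2 ratio of -0.14 after scaling. Geminin, encoded by *Gmnn*, inhibits Cdt1 after licensing, and its signal of 3993 in the control and 3754 in the *Drp1*LiKO culture gave a ratio of -0.27. The loading factors thus differed unequally, with *Cdc6* 3.66-fold lower and *Cdt1* within the noise of spots.

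The promoters of the members with the lowest ratios are shown because the E2F motif is a feature of replication genes that the choice of members did not use. Each run is the 250 bases before the RefSeq start on GRCm38.p6, read on the strand of the gene, with matches to the E2F motif in capitals. They are chr10:110745189-110745438 on the plus strand for *E2f7*, chr11:98907901-98908150 on the plus strand for *Cdc6*, and chr12:24708004-24708253 on the plus strand for *Rrm2*, which holds no match and is shown for contrast.
E2f7: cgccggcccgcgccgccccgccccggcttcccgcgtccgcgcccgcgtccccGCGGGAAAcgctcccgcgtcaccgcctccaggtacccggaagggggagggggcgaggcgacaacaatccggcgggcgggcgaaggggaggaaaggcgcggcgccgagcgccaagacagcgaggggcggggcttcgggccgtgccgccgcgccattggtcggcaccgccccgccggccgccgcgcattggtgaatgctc
Cdc6: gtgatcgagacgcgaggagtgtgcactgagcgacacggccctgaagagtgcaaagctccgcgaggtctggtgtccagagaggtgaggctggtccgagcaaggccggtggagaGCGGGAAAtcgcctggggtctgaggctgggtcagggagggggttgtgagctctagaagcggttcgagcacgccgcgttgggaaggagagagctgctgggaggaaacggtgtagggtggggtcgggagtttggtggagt
Rrm2: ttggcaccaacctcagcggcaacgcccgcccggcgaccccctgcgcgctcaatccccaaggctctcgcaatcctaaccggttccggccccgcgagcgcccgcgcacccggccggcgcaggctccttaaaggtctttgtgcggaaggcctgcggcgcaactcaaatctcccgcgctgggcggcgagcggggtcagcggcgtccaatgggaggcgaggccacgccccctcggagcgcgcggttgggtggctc

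The motif searched was TTTCCCGC, TTTCGCGC, TTTGCCGC or TTTGGCGC, on both strands, in windows from 250 bases before to 50 after the start, and matches of these words may overlap. Of 49 members 41 had a window, and 16 of these (39.0%) held a match, against 3.29% of 17492 protein-coding genes with a window of the same length. A match was also held by 9 of 33 of the other replication genes (27.3%), by 5 of 11 other E2F and pocket protein genes (45.5%) and by 1 of 15 mitotic genes (6.67%), so it was not particular to the members. *E2f7* and *Cdc6* each held GCGGGAAA, at offsets of -198 and -138 bases from the start. The promoters of *Rrm2*, *E2f8*, *Mcm10*, *Cdc45* and *Tk1* held none of these words, and *Pole* had no window. *Mcm6* held the most matches of any member, 3, and was among the members that differed least. Its matches at -110 and -106 overlap, so they are not separate stretches of the promoter. The 16 members with a match had a median log2 ratio of -0.71, and the 25 without one -0.70. A match is a description of these letters and not a site of binding.

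The helicase subunits were all lower, by unequal amounts. All 6 of *Mcm2* to *Mcm7*, which form the replicative helicase, were lower. Their median ratio was -0.79 on the log2 scale, and no subunit passed the threshold. *Mcm5* was the lowest of them, at 3848 in the control and 2121 in the *Drp1*LiKO culture (-1.04). *Mcm4*, *Mcm2*, *Mcm7* and *Mcm3* followed at -0.82, -0.82, -0.76 and -0.70. These 4 values differ by about the noise of single spots, so their order carries no weight. *Mcm6* stood apart, at 30223 in the control and 28636 in the *Drp1*LiKO culture, a ratio of -0.26, and its second probe gave -0.44. *Mcm8*, which acts in recombination rather than as a subunit of this helicase, was 1.97-fold lower, from 229 to 132. *Mcm10*, which does not belong to the ring but binds it as the origin fires, was the MCM gene past the threshold. Its signal was 564 in the control and 194 in the *Drp1*LiKO culture, a log2 ratio of -1.72. Its second probe, of another transcript model, was dim, with 43.4 in the control and 19.6 in the *Drp1*LiKO culture. That probe passed only narrowly, at -1.33 with a spot noise of 0.21.

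The origin recognition complex differed from the helicase it loads. The median log2 ratio of its 6 genes was -0.28, and no gene passed the threshold. *Orc1*, the subunit whose level varies most with the cell cycle, had the lowest ratio, with 235 in the control and 121 in the *Drp1*LiKO culture (-1.14), and a second probe at -1.30 lay just short of it. *Orc6* followed at -0.37. *Orc2* to *Orc5*, which form the core of the complex, had a median of -0.05, equal to the median of all detected genes, and their probes fell on both sides of 0. *Orc2* had probes at -0.34 and 0.16, and *Orc5* at -0.22 and, as a bound, 0.46. *Orc3* (1378 in control, 1822 in *Drp1*LiKO cells, 0.22) and *Orc4* (1284 and 1576, 0.11) were the only members with a higher ratio. Their further probes lay at 0.18 and -0.07 for *Orc3* and at 0.18 and -0.04 for *Orc4*, so none of the 4 core genes had probes of a single sign.

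Among the genes that fire origins and complete the helicase, all 7 were lower, with a median of -0.82. *Cdc45*, which joins the helicase at firing, passed the threshold, with a dim signal of 125 in the control and 53.6 in the *Drp1*LiKO culture and a log2 ratio of -1.40, while its second probe gave -0.96. The GINS genes, whose 4 products bind together as 1 complex, did not share a ratio. *Gins2* (-0.98) and *Gins1* (-0.82) were lower than *Gins4* (-0.52), and *Gins3* had 10943 in the control and 11316 in the *Drp1*LiKO culture, a ratio of -0.13. The kinase *Cdc7* had 375 and 238 (-0.84). Its activator *Dbf4* had 464 and 438, a ratio of -0.27 within the noise, and its other probes were at 0.17 and, as a bound, at 0.10.

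**Figure D2:**
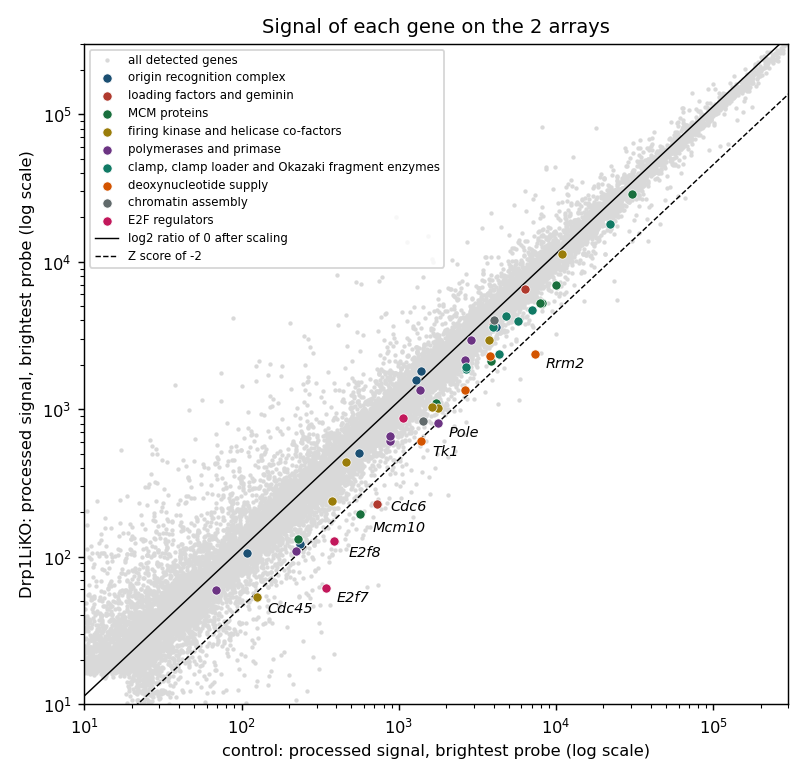
Processed signal of the brightest probe of each gene in control (x axis) and *Drp1*LiKO hepatocytes (y axis), both on log scales, with all detected genes in grey and the replication genes colored by role. The solid line marks a log2 ratio of 0 after scaling and the dashed line a Z score of -2. The 8 named genes lie on or below the dashed line, from dim genes such as *Cdc45* to *Rrm2* with a signal of 7313 in control.

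The enzymes that supply deoxynucleotides had the lowest median of the groups other than the E2F factors, -1.27 over 4 genes, all lower. *Rrm2*, the small subunit of ribonucleotide reductase that is made in S phase, had 7313 in the control and 2377 in the *Drp1*LiKO culture, a log2 ratio of -1.80 with a spot noise of 0.08. The large subunit *Rrm1* had 2644 and 1351 (-1.15), short of the threshold. *Tk1*, the thymidine kinase of the salvage pathway, had 1394 and 605 (-1.39), and its 3 detected probes lay between -1.53 and -1.30. *Tyms*, which makes thymidylate, had 3824 and 2286 (-0.92), and its 3 probes lay between -0.99 and -0.86. No enzyme had a detected probe of the opposite sign, and the small subunit of the reductase had a lower ratio than the large one.

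At the fork, the polymerase and primase genes were all lower, 8 of 8, with a median of -0.53. *Pole*, the catalytic subunit of the leading strand polymerase epsilon, had a signal of 1780.2 in the control and 806 in the *Drp1*LiKO culture, a log2 ratio of -1.33, past the threshold by 0.01. Its second detected probe gave -0.80. The subunits of polymerase delta differed within the noise, *Pold2* at -0.20 and *Pold1*, the highest of the group, at -0.15, with signals of 2892 in the control and 2962 in the *Drp1*LiKO culture before scaling. Polymerase alpha and primase lay between, with *Prim2* at -0.72, *Pola1* at -0.60, *Prim1* at -0.47 and *Pola2* at -0.41, of which *Pola2* was dim (69.3 in the control and 59.2 in the *Drp1*LiKO culture). *Prim2* had a second probe, near background, at 0.13. The catalytic genes of the polymerases thus ranged from 1.11-fold lower for *Pold1* to 2.51-fold lower for *Pole*.

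The clamp, its loader and the enzymes of Okazaki fragments were lower in 8 of 8 cases without a gene past the threshold, with a median of -0.68. *Pcna*, the sliding clamp, had a signal of 21914 in the control and 18160.4 in the *Drp1*LiKO culture, a ratio of -0.45. The loader genes *Rfc1* to *Rfc5* ranged from -0.33 for *Rfc1* (3983 and 3596) to -1.04 for *Rfc5* (4314 and 2380.3), with a median of -0.65. The flap nuclease *Fen1* (-0.78) and the ligase *Lig1* (-0.72), which finish the lagging strand, lay close to the median of the members. Of the chromatin assembly factor that places histones behind the fork, the large subunit *Chaf1a* had 1433 and 831 (-0.97), whereas *Chaf1b* had 4037 and 4009.6 (-0.19), within the noise. Within complexes whose proteins work together, ratios therefore differed by more than the noise of spots, as for *Chaf1a* and *Chaf1b* or *Gins2* and *Gins3*.

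For *E2f7* and *Pole2* the probes of a gene disagreed by more than 1 on the log2 scale, so what a ratio says about the gene depends on the probe. The first 30 of the 60 bases of each probe are shown to tell the probes apart, with coordinates on mm9 as in the files. Their place in exons or introns was not analysed here.
E2f7 brightest probe: ctacttggaacgctactactacgtgtaaac
E2f7 second probe: gactgccttttaggtaatttcgttaaaagg
E2f7 remaining probe: gttaaatggttttaacatggttttaccagg
Pole2 brightest probe: tcacgactaatccttgcagaattcagtatt
Pole2 second probe: ttttacaccaggtaagttgggaatgggaga

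The brightest probe of *E2f7* (NM_178609, chr10:110224331-110224390, plus strand) gave the ratio of -2.66. The second, of the transcript model ENSMUST00000174810 (chr10:110204765-110204824), had 36.4 in control and was not well above background in *Drp1*LiKO cells, which gives a bound of at least 2.76-fold lower. The remaining probe, again of NM_178609 (chr10:110219255-110219314), was dim and had the opposite sign, with 47.2 in the control and 62.8 in the *Drp1*LiKO culture (0.23). Of *Pole2*, the second subunit of polymerase epsilon, the brightest probe (NM_011133, spanning chr12:70307465-70308864 on the minus strand) had 221 in the control and 109.8 in the *Drp1*LiKO culture, a log2 ratio of -1.19. Its other probe, designed on the cDNA AK011194 (chr12:70322698-70322974), had 24.3 in the control and 79.4 in the *Drp1*LiKO culture, a ratio of 1.52, and was the member probe past the threshold in the higher direction. Both genes thus carried probes of opposite sign. A further probe named *Gmnn* (AK131677) lies on the plus strand of chromosome 13 while the other *Gmnn* probes lie on the minus strand, and its ratio of -1.26 is a bound.

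Replication genes that are no members were lower as well, by less. Of 40 such genes, all detected, 32 were lower. Their median was -0.48 on the log2 scale, and 3 passed the threshold, all lower. These were *Dscc1*, of an alternative clamp loader (88.0 in control, 29.8 in *Drp1*LiKO cells, -1.75), *Ticrr*, which brings Cdc45 to origins (112 and 43.9, -1.53), and *Uhrf1*, which maintains DNA methylation at the fork (4191 and 1808, -1.40). Among 16 other E2F, pocket protein and related genes, 14 were lower with a median of -0.58, and those past the threshold were *Mybl2* (1411 and 378, -2.08) and *Foxm1* (837 and 233, -2.03). Both encode activators of genes of G2 and mitosis.

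Mitotic genes had lower ratios than the replication genes. Of 18 mitotic genes all were lower and 16 passed the threshold, with a median of -2.04, a 4.11-fold lower level, so the members lay 1.32 above them on the log2 scale. The lowest mitotic ratios were those of *Ccna2* (-2.32), *Plk1* (-2.31), *Mki67* (-2.30), *Cenpf* (-2.29), *Cdc20* (-2.26) and *Ttk* (-2.22). Among the members, *E2f7* alone had a lower ratio than *Ccna2*. Of the 18, 12 stand in the list of mitotic nuclear division that the study drew from this experiment by their Z score, so neither the direction nor the size of their ratios is an independent result. The 6 others, *Mki67*, *Aurkb*, *Bub1b*, *Ttk*, *Top2a* and *Cenpf*, had ratios below 0 in each case (median -2.07), and 5 of them passed the threshold. These 6 were set apart after the values were seen. The difference between the lists has no replicate and was not tested.

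**Figure D3:**
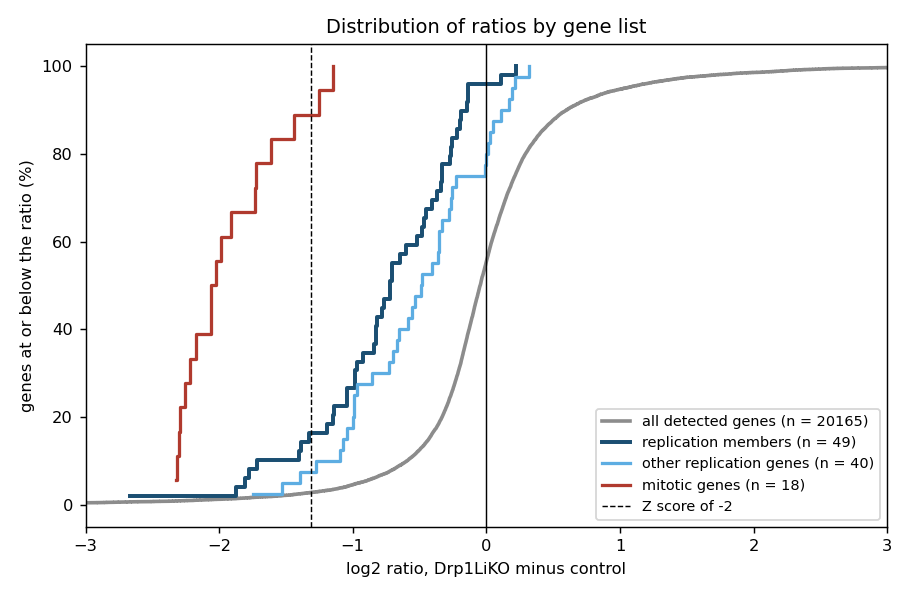
Share of genes (y axis, percent) at or below a given log2 ratio (x axis, *Drp1*LiKO minus control) for all 20165 detected genes, the 49 replication genes, the 40 other replication genes and the 18 mitotic genes, with a Z score of -2 dashed. The medians of both replication lists lie between the median of all genes, -0.05, and that of the mitotic genes, -2.04.

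Markers of macrophages, endothelial and stellate cells were higher on the *Drp1*LiKO array, opposite to the replication genes. Hepatocyte markers had a median log2 ratio of 0.10 over 12 genes, 7 of them higher, and spanned -1.05 for *G6pc*, a bound, to 2.03 for *Cyp3a11*, the marker past the threshold. Their summed signal was 630195 in the control and 696749 in the *Drp1*LiKO culture, and *Alb* had a ratio of 0.10 after scaling. The sums in this paragraph are before scaling, and the 75th percentile was 313 on the control and 356 on the *Drp1*LiKO array. All 11 detected of 12 Kupffer cell and macrophage markers were higher, with a median of 2.52 and a summed signal of 4706 in the control and 20482 in the *Drp1*LiKO culture. *Clec4f* and *Vsig4* were not well above background in control, and *Timd4* was not detected on either array. All 8 endothelial markers were higher (median 1.60, summed signal 4456 and 9099), with *Lyve1* not well above background in control. Of 7 detected stellate cell markers 6 were higher (median 1.04, summed signal 21844 and 29182). Most of the stellate sum was *Acta2* (21437 and 24640, a ratio of 0.02). *Des*, *Col3a1* and *Pdgfrb* were not well above background in control. Of the 6 cholangiocyte markers 4 were detected, with a median of 0.09. Of the 8 T, NK and B cell markers 2 were detected, both lower, *Cd3e* at -0.37 and *Ms4a1*, as a bound, at -0.29. Of the 6 neutrophil markers 3 were detected. *Ly6g* passed the threshold at 1.90 and *Camp* had 0.38, both as bounds, whereas *Elane* had -0.21. The part of this difference in cell markers in the lower replication signals was not tested. Control and *Drp1*LiKO cells were 1 culture each, so the genotype and the culture cannot be told apart.

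Of 13 other ways of processing the arrays, 5 left the ratios of the members as they were. Some of these change only the Z score. The rest change the treatment of dim probes, and the brightest probe of each of the 49 members cleared background on both arrays. Under the 8 that changed member ratios the median of the members lay between -0.75 and -0.63, and 44 to 47 of the 49 were lower. A ratio below 0 under each of these was seen for 43 members, while *Dbf4*, *Orc5*, *Pola2* and *Pole2* were above 0 under at least 1. Over all 13, the number past the threshold in the lower direction ranged from 4 to 23. The 4 were seen without a floor for dim signals, where 2.53% of all detected genes passed. The 23 were seen with a robust Z score, under which 7.16% of all detected genes passed. *Cdc6*, *E2f7*, *E2f8* and *Rrm2* passed under every alternative. *Pole2* turned to 1.52 when the probe with the largest ratio stood for the gene.

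**Figure D4:**
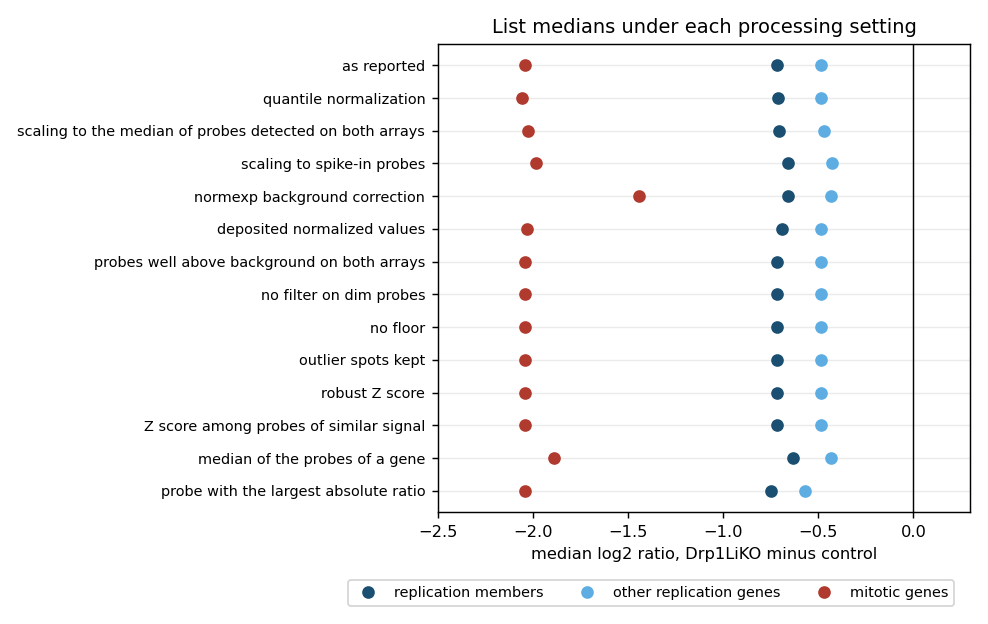
Median log2 ratio (x axis, *Drp1*LiKO minus control) of the replication genes, the other replication genes and the mitotic genes under the processing as reported and under each of 13 alternatives (y axis). The median of the replication genes lies between -0.75 and -0.63, 5 of the alternatives leave it as it was, and that of the mitotic genes moves to -1.44 with normexp background correction.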

How the data were processed

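Total RNA of control and *Drp1*LiKO primary hepatocytes, 1 culture each, was labeled with Cy3 and hybridized to Agilent mouse arrays with probes of 60 bases. The authors deposited the Feature Extraction output of each array, a linear intensity per spot with background subtracted and no normalization between arrays (version 10.7.1.1 in the file headers and 9.5.1.1 in the submitters' notes). They also deposited a table of normalized intensities by a method not given in the sources used here, which served as an alternative.

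Spots marked as outliers and controls were left out, spots of a probe were averaged as log2, and each array was scaled by its 75th percentile. Probes that cleared background on 1 array or both (30275) were kept, and dimmer signals were raised to the lowest one that cleared it (control 18.2, *Drp1*LiKO 15.0), which makes the ratio a bound. Z scores were taken over these probes (mean -0.01, SD 0.65), because the study names a threshold of 2. A gene was its probe with the highest mean signal. The members, gene lists and naming rule were chosen with earlier results of these data known. All members are accounted for. Signals and ratios are given for members past the threshold, the lowest and highest of each role, *E2f7*, *Pole2* and *Dnm1l*. They are also given for the genes past the threshold among the other replication and E2F genes. For other members with probes of both signs, and for the 6 lowest mitotic genes, at least the ratios are given. Promoters are from RefSeq, GRCm38.p6.

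No test was made with 1 array per genotype. Alternatives covered scaling, background correction, filters, the Z score and the choice of probe. The steps were tested on simulated data. Python 3.11.15 (numpy 2.4.6, pandas 2.3.3, scipy 1.17.1, matplotlib 3.10.9) was used, and limma 3.58.1 ran in R 4.3.3.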

Additional observations from a re-analysis of the deposited data

How the results depend on the processing

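With 1 array per genotype, no alternative could leave out a replicate, and only spot noise, a median of 0.10 on the log2 scale for the members, served to judge a shift. No paired analysis was possible because each genotype has 1 array. The members past the threshold in the lower direction were 14 with normexp background correction, 4 with no floor, 23 with a robust Z score and 15 with a Z score taken within bins of signal, in place of 8. Of all detected genes, 2.71%, 2.53%, 7.16% and 3.62% passed in this direction, in that order, in place of 2.81%. The member probes were 19, 5, 38 and 21 in place of 12, and the share of all probes was not computed for these settings. The other alternatives gave from 6 members with the median of the probes of a gene (2.75% of all detected genes) to 11 with probes well above background on both arrays (2.34%). The members past in the higher direction were 1 with the deposited normalized values (*Pola2*) and 1 with the probe of the largest absolute ratio (*Pole2*), in place of 0. The median of the mitotic genes was -1.44 with normexp and -1.89 with the median of the probes of a gene, and the difference of medians was 0.78 with normexp. Normexp was run with an offset of 50 added to every signal. The cause of these shifts, including the part of the offset, was not tested. No member past the threshold changed sign, nor did the medians of the members, the other replication genes and the mitotic genes, while that of the origin recognition complex was 0.01 with the median of the probes of a gene. Of the 13 alternatives, 5 left the ratios of all members as they were. Under the others, 396 values of single genes and role groups changed, 333 by less than the spot noise and 63 by more. With the 6 mitotic genes outside the study's list, an alternative chosen after seeing the data, the mitotic median was -2.07 and the difference of medians 1.35. *Pola2* had 1.66 with the deposited values, through a probe whose scanner signals were 43.8 in the control and 44.8 in the *Drp1*LiKO culture. Without a filter on dim probes the median of all genes was -0.47, and higher genes were 69.4% of those past the threshold in place of 55.5%. Dim members such as *Cdc45* and *Pola2* had the largest noise.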

Other observations

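Cyclins and inhibitors of the G1 to S transition, which act before the replication genes, showed no gene past the threshold among 13 detected of 14, with 9 lower and a median log2 ratio of -0.31. *Ccne1*, whose product with Cdk2 drives entry into S phase, had a signal of 8124 in the control and 4612 in the *Drp1*LiKO culture (a Z score of -1.52), and *Cdk2* had 239 and 142 (-0.93). The D cyclins were at -0.85 for *Ccnd3*, -0.78 for *Ccnd2* and -0.31 for *Ccnd1*. The inhibitor *Cdkn1a*, a target of p53, had 6796 and 7374 (-0.06), and *Cdkn1b* had 1080.0 and 1261 (0.04). The other inhibitors did not share a direction. *Cdkn2b* had 2336 and 3189 (0.27), and *Cdkn1c*, which was dim, had 40.5 and 74.6 (0.70). *Cdkn2c* had 136 and 147 (-0.07), and *Cdkn2a*, near background, had 24.2 and 18.4 (-0.58). *Ccne2* was not detected on either array.

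Among the replication genes outside the members, the subunits of RPA, the complex that coats single-stranded DNA, had unequal ratios, with *Rpa2* at -0.99, *Rpa1* at -0.48 and *Rpa3* at -0.01. *Mcm9* had the highest ratio of that list, 0.32. *Rrm2b*, the small subunit of ribonucleotide reductase that cells use outside S phase, was dim and had 57.1 in the control and 66.1 in the *Drp1*LiKO culture (0.03), against -1.80 for *Rrm2*.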
